A study of Mus musculus with 20 samples.

Results

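The cells described here are CD8 T cells recovered from untreated melanomas, some from wild-type and some from Tet2 knockout donors, and the comparison is of their transcripts between genotypes. The knockout donors were Tet2-/- mice crossed to OT-I mice, whose transgenic T cell receptor recognises an ovalbumin peptide, and the transferred cells are described as OT-I. They were moved into mice with tumours of B16-OVA, a mouse melanoma line engineered to make ovalbumin, and tumour-infiltrating cells were taken on day 8 after transfer. The deletion is germline, and the labels give no age or strain of the mice, no number of animals per library and no part of Tet2 that was deleted. Cells were chosen by measured UMI counts: a cell was taken as a CD8 T cell when it held at least 3 UMIs of Cd3d, Cd3e and Cd3g together, at least 1 of Cd8a and Cd8b1, under 5 of the macrophage genes C1qa, C1qb, C1qc and Lyz2, and under 10 of the pigment genes Mlana, Pmel, Dct and Tyrp1. A UMI, or unique molecular identifier, marks 1 captured RNA molecule. These limits found 1085 cells in the wild-type untreated library and 1531 in the knockout untreated library, 2616 of 4518 cells kept after filtering, and 7398 cells were kept over all 4 single-cell libraries. Cells with under 4 UMIs summed over 6 mitotic genes (Mki67, Top2a, Birc5, Ube2c, Cenpf and Ccna2) are called non-mitotic, 503 wild-type and 896 knockout cells. The other 2 libraries, wild-type and knockout with an antibody against PD-L1, held 1297 and 1017 such CD8 T cells and are given beside them. Each group is 1 library, so no difference between groups was tested, and every interval covers counting error only.

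Tet2 encodes an enzyme that oxidises methylated cytosine in DNA, a step towards loss of the methyl mark, and it is often mutated in blood cancers. A CD8 T cell that meets its antigen through the T cell receptor switches on a wave of early genes. Among them are transcription factors of the AP-1, NR4A and NF-kB families, inhibitors that these pathways induce against themselves, and phosphatases that shut off MAP kinases. Cells that keep meeting antigen in a tumour acquire inhibitory receptors and the factor Tox, a state called exhaustion, and a progenitor-like subset marked by Tcf7 renews them.

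Promoters of genes named below show what such control regions look like. The 200 bases before the transcription start of 5 genes are printed from RefSeq (GRCm38.p6), 5′ to 3′ along the gene, with motif matches in capitals. Nfkbia, Tnfaip3 and Rel belong to the NF-kB pathway and each has a match to the NF-kB consensus, the closest to the start beginning 29, 12 and 91 bases before it. Tnfaip3 also has an AP-1 motif (TGANTCA), which begins 136 bases before the start. Dusp5, a phosphatase of ERK, has a pair of abutting CArG boxes, the element that serum response factor binds, beginning 82 and 72 bases before its start. Cdc20, an activator of the anaphase-promoting complex, has the cell cycle element CHR (TTTGAA) beginning 18 bases before it.
Nfkbia (chr12:55492648-55492847, minus strand): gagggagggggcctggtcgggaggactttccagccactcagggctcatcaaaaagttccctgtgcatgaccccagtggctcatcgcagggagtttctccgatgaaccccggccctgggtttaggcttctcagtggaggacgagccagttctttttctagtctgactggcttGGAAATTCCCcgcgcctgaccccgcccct
Tnfaip3 (chr10:19015411-19015610, minus strand): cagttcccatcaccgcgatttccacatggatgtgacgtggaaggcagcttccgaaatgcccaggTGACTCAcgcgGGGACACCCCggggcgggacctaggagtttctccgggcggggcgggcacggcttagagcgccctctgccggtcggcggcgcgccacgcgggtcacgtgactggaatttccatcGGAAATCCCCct
Rel (chr11:23770970-23771169, minus strand): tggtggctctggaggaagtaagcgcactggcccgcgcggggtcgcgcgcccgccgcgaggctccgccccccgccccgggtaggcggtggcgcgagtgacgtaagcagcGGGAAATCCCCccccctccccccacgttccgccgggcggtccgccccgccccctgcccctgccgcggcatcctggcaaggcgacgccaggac
Dusp5 (chr19:53528945-53529144, plus strand): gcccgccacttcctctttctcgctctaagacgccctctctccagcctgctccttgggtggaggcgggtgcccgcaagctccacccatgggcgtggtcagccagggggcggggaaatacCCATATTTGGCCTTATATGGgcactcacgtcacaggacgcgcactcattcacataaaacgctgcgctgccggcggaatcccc
Cdc20 (chr4:118437344-118437543, minus strand): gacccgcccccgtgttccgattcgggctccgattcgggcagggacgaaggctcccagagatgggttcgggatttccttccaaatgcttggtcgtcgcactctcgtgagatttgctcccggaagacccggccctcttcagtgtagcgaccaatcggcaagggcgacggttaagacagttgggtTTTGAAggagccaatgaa
The 2 NF-kB matches of Rel overlap, and 1 of the 2 listed starts of Tnfaip3 was used. Both strands of 300 bases, 250 before to 50 after the start, were searched in every gene with an entry. The NF-kB consensus was in 5 of 12 NF-kB list promoters (41.7%), in 4.999% of 3581 promoters of genes past the level floor used below, and in 4.35% of all 27025. CHR was in 13 of 19 G2/M list promoters (68.4%), 12.8% of those past the floor and 18.1% of all. Genes 1.5-fold higher in knockout held the NF-kB consensus in 8.12% of 234 promoters, CHR in 12.4% and the AP-1 motif in 7.26%. Those lower held the same motifs in 4.44%, 17.4% and 6.67% of 270 promoters. The AP-1 motif was in 1 of 28 promoters (3.57%) of the AP-1, T cell receptor induced and MAPK feedback lists, against 4.36% of those past the floor. A match is a run of letters, and whether any factor bound there was not tested.

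The libraries differed beyond genotype, and although the source is labelled as CD8+ tumour-infiltrating cells, other cell types were among them. The gated cells held 4734345 UMIs in wild-type untreated and 7941401 in knockout untreated, with medians of 3811 and 4483 per cell. Melanoma cells made up 34.0% of kept cells in wild-type untreated and 6.66% in knockout untreated, and macrophages 7.23% and 14.0%. Inside the gated cells, all 9 melanoma markers were above 0, summed to 116 CPM in wild-type and 35.6 CPM in knockout. Markers of erythroid cells, also all detected, summed to 146 and 487 CPM, and 5 fibroblast markers to 0.422 CPM, with 3 of them at 0, and 30.3 CPM. Xist was detected in 68.7% of wild-type and 94.1% of knockout cells and Y-linked transcripts in 11.1% and 0.131%, so the sex makeup of the cells moved with genotype and both cannot be told apart from these libraries alone. The untreated libraries shared 10 cell barcodes. Among markers that the gate did not use, Trac stood at 635 and 723 CPM. NK cell markers summed to 14.2 and 10.5 CPM, with Ncr1 at 0 in both and Eomes at 12.5 and 6.80 CPM. B cell markers summed to 316 and 294 CPM, with Ms4a1 at 0 in both and Ighm, a B cell transcript, at 299 and 287 CPM. Dendritic cell markers summed to 304 and 285 CPM, Cd74 being highest at 138 and 123 CPM. Macrophage or monocyte markers, which include the macrophage genes of the gate, summed to 173 and 142 CPM. The OT-I segments were not examined, so host CD8 T cells may be among the members.

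In untreated knockout cells many early-activation, NF-kB and feedback transcripts were higher than in wild-type cells, as were Gzma, Fasl and Ccl5. Many transcripts of mitosis genes, Gzmc, Dapl1 and Tox were lower. Ccl5 was also found in a larger share of knockout than of wild-type macrophages and melanoma cells, as given below. A gene was counted when its mean over the untreated libraries was at least 20 CPM, its summed UMIs scaled to a common total for all gated cells, and the libraries differed at least 1.5-fold. Of 4597 genes past that floor, 309 were higher in knockout (6.72%) and 355 lower (7.72%), and the median log2 fold over all of them was −0.12. Scaling by TMM factors, which trims the most extreme genes, gave 371 higher and 248 lower, and median-of-ratios size factors 364 and 261, with medians of −0.05 in both. Among non-mitotic cells 379 of 4534 genes were higher (8.36%) and 489 lower (10.8%). Of the 309 higher genes 256 were higher there too (82.8% of these and 67.5% of the 379), and of the 355 lower genes 247 were lower (69.6% and 50.5%), none in the opposite direction. Among cells with a UMI of Xist and no Y-linked UMI, 284 of the 309 were still 1.5-fold higher and 319 of the 355 still 1.5-fold lower, by fold alone. Among cells with no UMI of the main pigment and C1q genes these were 273 and 293.

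**Figure D1:**
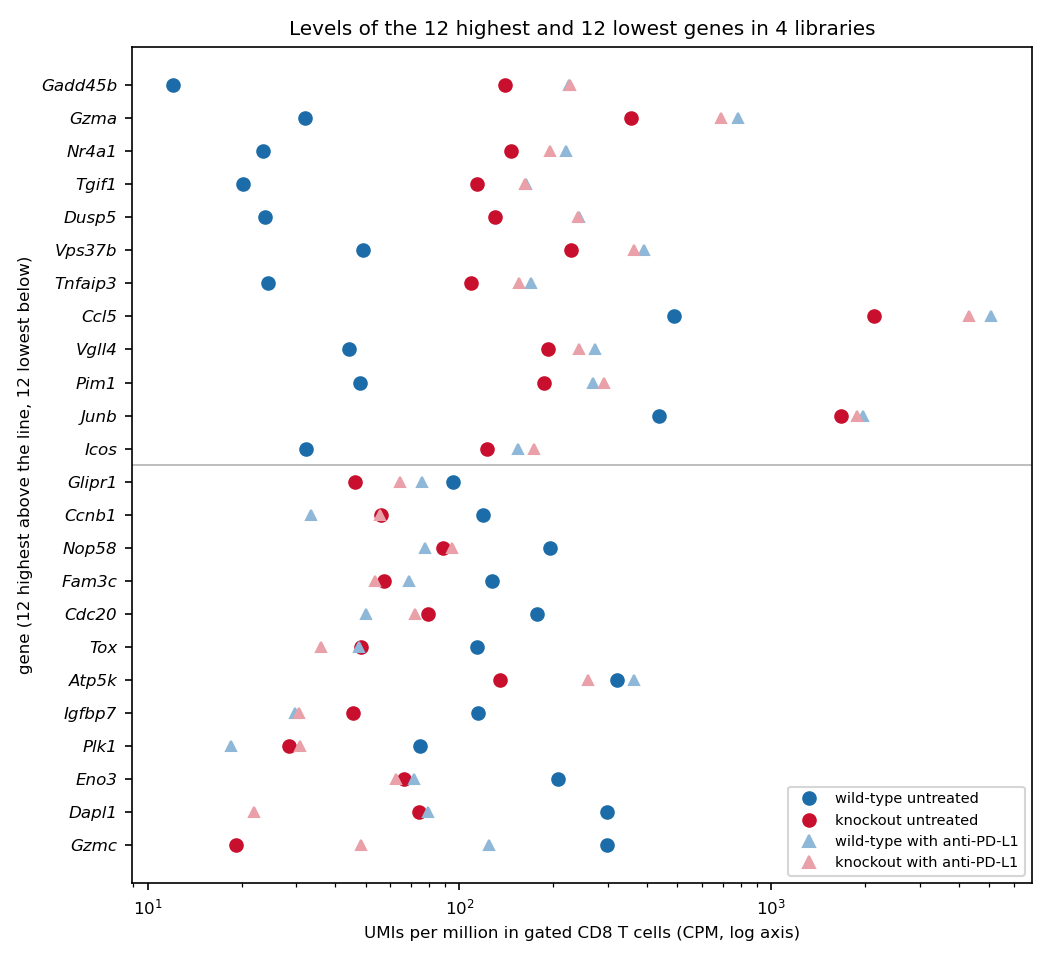
Levels of the 12 genes with the largest folds in each direction, as CPM on a log axis, in gated CD8 T cells of 4 libraries (circles untreated, triangles with anti-PD-L1). The blue wild-type untreated circle lies left of the other 3 libraries for each of the 12 higher genes, and right of them for 11 of the 12 lower genes, Atp5k being the exception.

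Genes with the largest positive folds were named among those with a mean of at least 50 CPM, a UMI in at least 5% of cells and the same call in non-mitotic cells, which 108 higher and 138 lower genes met. Gadd45b, a stress-induced regulator of MAP kinase signalling (chromosome 10, 80930091 to 80932204 on GRCm38.p6), was at 12.04 CPM in untreated wild-type and 140.2 CPM in untreated knockout cells, and at 224 and 226 with anti-PD-L1. As knockout against wild-type, its untreated log2 fold came to 3.54 (95% interval 3.16 to 3.95), with 3.39 in non-mitotic and 3.57 in mitotic cells. Wild-type untreated was the low library, and the remaining 3 lay well above it. After thinning each cell at random to 2600 UMIs, 2.83% (95% interval 1.84 to 4.15) of wild-type and 28.7% (26.3 to 31.1) of knockout cells held a UMI, as did 15.97% and 27.4% of macrophages and 2.85% and 5.48% of melanoma cells. Nr4a1, an orphan nuclear receptor widely used as a reporter of receptor engagement, was at 23.4 CPM in untreated wild-type and 146 CPM in untreated knockout cells, and at 219.8 and 195 with anti-PD-L1. The log2 fold was 2.64 (95% interval 2.36 to 2.93), again with wild-type untreated lowest. Dusp5, whose promoter is printed above, was at 23.9 CPM in untreated wild-type and 130.1 CPM in untreated knockout cells, and at 242 and 239.9 with anti-PD-L1, a fold of 2.45 (95% interval 2.16 to 2.74) untreated. Tgif1, a homeobox repressor of TGF-beta responses, was at 20.3 and 114 CPM in wild-type and knockout untreated (2.49) and at 163 and 162 CPM with anti-PD-L1. For Vps37b, a subunit of the ESCRT sorting complex, the levels were 49.2 and 228 CPM untreated (2.21) and 390.4 and 364 CPM with the antibody. Vgll4, a cofactor that competes for TEAD factors, was at 44.1 and 193 CPM untreated (2.12) and 272 and 242 CPM treated. All 3 again had wild-type untreated lowest and the treated libraries above knockout untreated.

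The list of T cell receptor induced genes had 19 of 22 members past the floor, with a median log2 fold of 0.66. Of these 11 were higher and 3 lower in knockout, beside 6.72% and 7.72% of all genes. The non-mitotic median over the 17 members past the floor there was 0.79, and the mitotic median over 19 members was 0.55. Icos, a co-stimulatory receptor that activation induces, was at 32.1 CPM in untreated wild-type and 123 CPM in untreated knockout cells, and at 154 and 174 with anti-PD-L1. That is a log2 fold of 1.94 (95% interval 1.69 to 2.19) untreated, with wild-type untreated far below the others. Thinned to 2600 UMIs, 7.81% (95% interval 6.13 to 9.79) of wild-type and 25.9% (23.6 to 28.3) of knockout cells held an Icos UMI. No thinned macrophage or melanoma cell did, which allows up to 2.52% and 1.04% of macrophages and 0.389% and 2.05% of melanoma cells, wild-type first. The same limits hold where no such cell is reported for the genes below. Tagap, a GTPase-activating protein of activated T cells, had 13.5 and 53.1 CPM (1.97) and Nr4a3, a relative of Nr4a1, 10.98 and 30.7 CPM (1.48). Cd69, an early activation antigen that retains cells in tissue, was at 55.3 and 133 CPM (1.26). Some members were lower: Cd82, a tetraspanin, stood at 229 and 123 CPM (−0.89), Cd83 at 34.2 and 20.02 CPM (−0.77) and the AP-1 partner Batf at 96.1 and 63.7 CPM (−0.59). In macrophages of the same libraries 7 members passed the floor, 3 higher and none lower, with a median of 0.43, where 11.8% of all genes were higher and 18% lower.

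MAP kinase feedback genes, the phosphatases and Sprouty-type inhibitors that ERK induces, had 4 of 10 members past the floor, with a median of 1.57. Of these 3 were higher, beside 6.72% of all genes. Dusp2, which dephosphorylates ERK in lymphocytes, was at 161 CPM in untreated wild-type and 513 CPM in untreated knockout cells, and at 519 and 469 with anti-PD-L1. Its log2 fold was 1.67 (95% interval 1.56 to 1.79), and the knockout untreated level was within the range of the treated libraries. Dusp1, an early-induced phosphatase of p38 and JNK, was at 80.7 and 222 CPM (1.46), and Dusp4 at 43.1 and 49.2 CPM (0.19, under 1.5-fold). Dusp5 held a UMI in 5.66% (95% interval 4.23 to 7.40) of wild-type and 25.6% (23.3 to 27.97) of knockout cells after thinning, against 0.130% of wild-type and none of knockout melanoma cells, and none of wild-type and 7.29% of knockout macrophages. In macrophages 4 members of the list passed the floor, 2 higher and 1 lower, with a median of 0.44, beside 11.8% and 18% of all genes.

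NF-kB genes had 15 of 20 members past the floor, 7 higher and 1 lower (median 0.51), beside 6.72% and 7.72% of all genes. The inhibitors that the pathway induces led. Nfkbid, a nuclear IkB protein, was at 7.82 CPM in untreated wild-type and 68.9 CPM in untreated knockout cells, and at 76.2 and 87.5 with anti-PD-L1. The log2 fold was 3.14 (95% interval 2.66 to 3.66), and the 3 other libraries lay close together. Nfkbia, which encodes IkB-alpha, was at 238 CPM in untreated wild-type and 775 CPM in untreated knockout cells, and at 792 and 774 with anti-PD-L1, a fold of 1.71 (95% interval 1.61 to 1.80) untreated. Tnfaip3, the A20 ubiquitin-editing enzyme, was at 24.3 CPM in untreated wild-type and 109 CPM in untreated knockout cells, and at 169 and 155 with anti-PD-L1, a fold of 2.16 (95% interval 1.88 to 2.46) untreated. Wild-type untreated was lowest for all of them, and knockout untreated was below both treated libraries for Tnfaip3. Of the subunits, Rel was at 26.4 and 82.1 CPM (1.64) and Nfkb1 at 58.1 and 91.04 CPM (0.65), whereas Rela was at 43.1 and 30.6 CPM (−0.49) and Relb at 35.5 and 33.9 CPM (−0.07). Nfkb2, the subunit of the non-canonical arm, was the 1 lower member, at 50.7 and 24.9 CPM (−1.02). In macrophages 8 of 18 NF-kB members were higher and 1 lower (median 0.51), against 11.8% and 18% of all genes. Nfkbia had 37.3% (95% interval 34.1 to 40.5) of wild-type and 77.9% (75.6 to 80.01) of knockout cells with a UMI, 47.1% and 66.7% of macrophages and 5.44% and 9.59% of melanoma cells.

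AP-1 and immediate early genes had 14 of 20 members past the floor, 11 higher and none lower (median 1.31). Beside them 6.72% of all genes were higher and 7.72% lower. Fosl2, an AP-1 subunit, was at 7.18 CPM in untreated wild-type and 72.5 CPM in untreated knockout cells, and at 106 and 89.8 with anti-PD-L1. Its log2 fold was 3.34 (95% interval 2.84 to 3.88). Junb, which pairs with Fos and Batf proteins, was at 436 CPM in untreated wild-type and 1676 CPM in untreated knockout cells, and at 1973 and 1878 with anti-PD-L1, a fold of 1.94 (95% interval 1.88 to 2.01) untreated. The anti-proliferative gene Btg2 was at 101 and 342 CPM (1.76) and Ier2 at 120.4 and 404 CPM (1.75), while Jun itself was at 50.3 and 53.5 CPM (0.09). Other cells of the same libraries moved with them: 12 of 17 members were higher in macrophages (median 1.03; 11.8% of all genes were higher there) and 6 of 13 in melanoma cells (median 0.32; 6.58%). Junb had folds of 1.32 in macrophages and 1.03 in melanoma cells, and its share of cells with a UMI was 20.1% and 36.99% of melanoma cells against 56.5% and 91.9% of CD8 T cells. What part of the CD8 T cell difference these shared changes make was not tested. Heat shock genes, which encode protein chaperones, were on the other side, with 3 of 11 lower, none higher and a median of −0.41. In CD8 T cells 7.72% of all genes were lower. In non-mitotic cells none of 11 was past 1.5-fold (median −0.21). Among cells with a Tcf7 UMI 2 were higher and 2 lower, beside 6.71% and 9.53% of all genes. Hspa1a was at 146 CPM in untreated wild-type and 78.8 CPM in untreated knockout cells, and at 44.1 and 139.8 with anti-PD-L1, an untreated fold of −0.89, and Hsp90aa1 at 951 and 613 CPM (−0.63). Under TMM factors Hsp90aa1 (−0.56) and Hsp90b1 (−0.53), also lower, were within 1.5-fold.

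**Figure D2:**
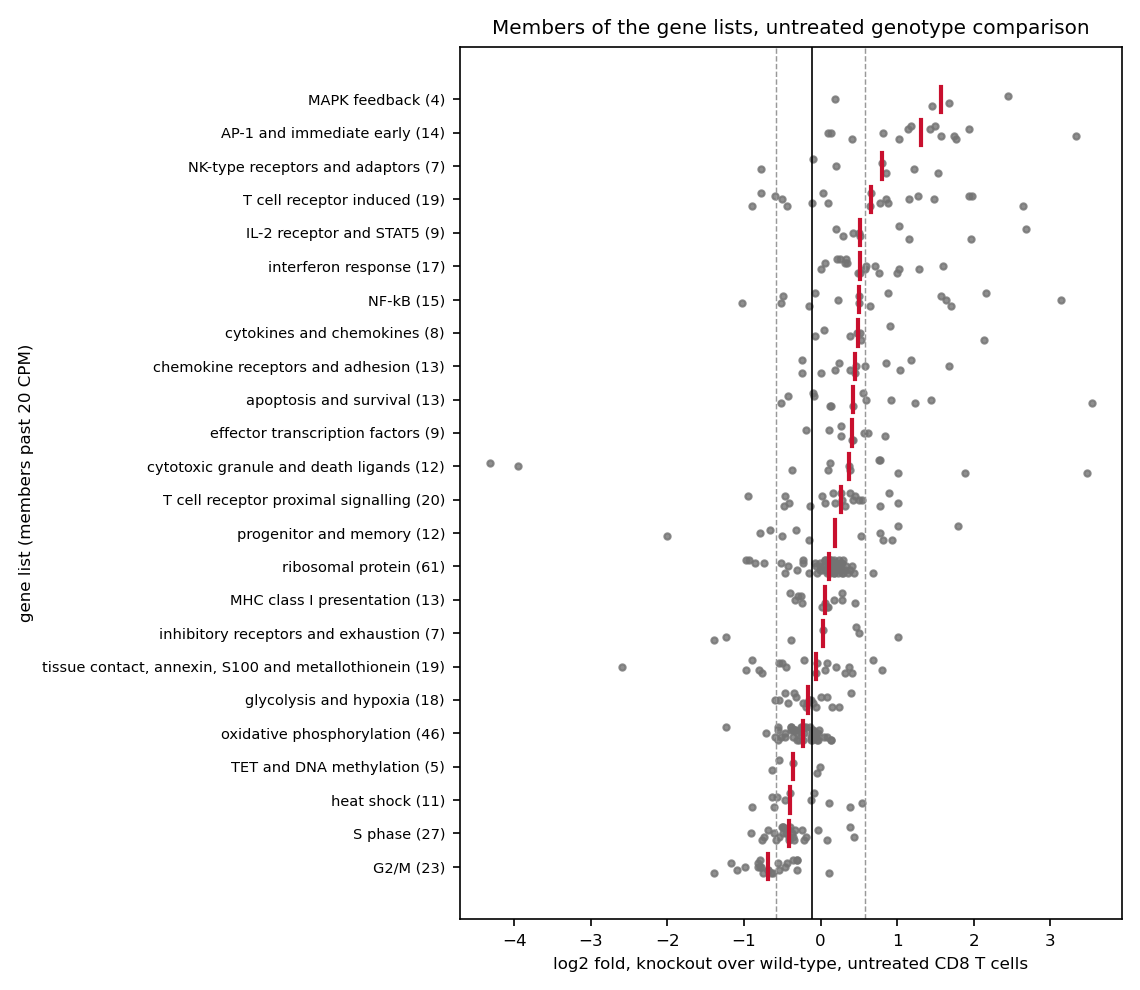
Log2 folds of knockout over wild-type in untreated CD8 T cells for each member past 20 CPM (grey points) of 24 gene lists, with the list median as a red bar. The black line is the median of all 4597 genes (−0.12) and dashed lines mark 1.5-fold. MAPK feedback and AP-1 genes lie furthest right and G2/M genes furthest left.

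The difference in early genes was spread over the cells. Each cell was thinned to 2600 UMIs and UMIs of the 72 genes in the T cell receptor induced, NF-kB, MAPK feedback and AP-1 lists were added. The median was 12 UMIs per wild-type and 26 per knockout cell in the untreated libraries, and 32 and 31 with anti-PD-L1. At most 10 UMIs were found in 40.5% and 3.31% of untreated cells, and in 1.14% and 1.91% with the antibody. The 90th percentile of wild-type untreated cells, 21 UMIs, was below the median of knockout untreated cells. With the mitotic split made on the thinned cells, non-mitotic cells had medians of 12 and 27 and mitotic cells 11 and 23, wild-type first. Over the 62 ribosomal protein genes the medians were 607 and 647 UMIs.

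**Figure D3:**
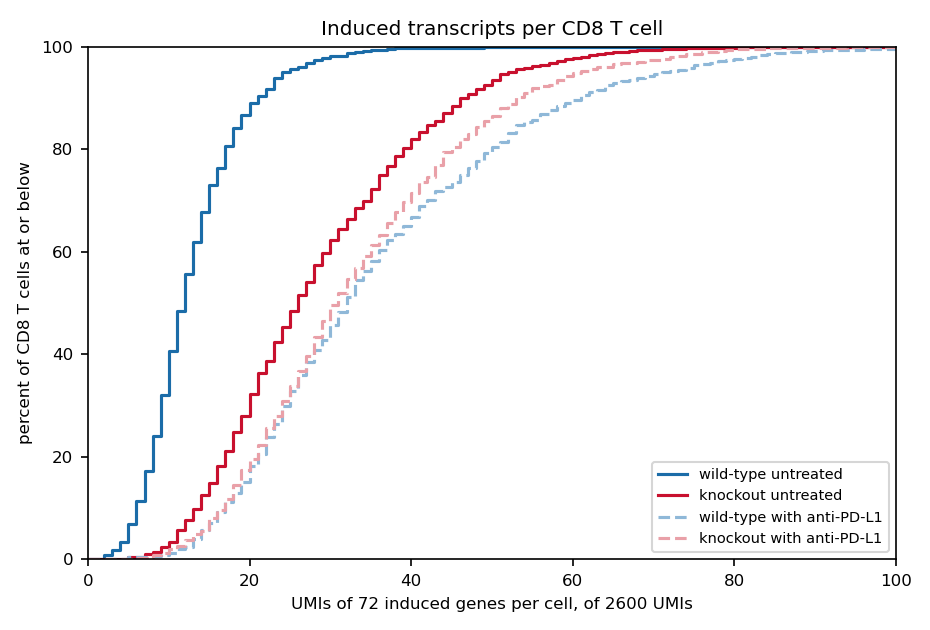
Cumulative share of CD8 T cells (y axis, percent) by UMIs of 72 induced genes per cell thinned to 2600 UMIs (x axis). The wild-type untreated curve (median 12) lies left of knockout untreated (26), and both treated libraries (32 and 31) lie further right.

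Growth factor and survival genes were higher where they passed the 1.5-fold limit. The IL-2 receptor and STAT5 list had 4 of 9 members higher and none lower (median 0.52), where 6.72% of all genes were higher and 7.72% lower. Pim1, a STAT-induced kinase, was at 47.9 CPM in untreated wild-type and 187 CPM in untreated knockout cells, and at 267 and 292 with anti-PD-L1. The log2 fold was 1.96 (95% interval 1.76 to 2.17), with wild-type untreated low. Cish, a STAT5-induced inhibitor of receptor signalling, was at 5.49 and 35.1 CPM (2.68), and Il2ra, the high-affinity chain of the receptor, at 25.98 and 57.7 CPM (1.15). Of 13 apoptosis and survival genes past the floor 5 were higher and none lower (median 0.42), beside the same shares of all genes. Members that promote and members that prevent cell death were among them. The median of this list was 0.23 in mitotic cells. In macrophages 4 of 15 were higher and 1 lower (median 0.37), beside 11.8% and 18% of all genes. The pro-apoptotic Bcl2l11, which encodes BIM, was at 43.3 and 102 CPM (1.24), the protective Mcl1 at 68.9 and 104 CPM (0.59), and the cell cycle inhibitor Cdkn1a at 13.3 and 36.3 CPM (1.45).

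Interferon response genes had 17 of 27 members past the floor, 7 higher and none lower, beside 6.72% and 7.72% of all genes. Medians were 0.52 in all, 0.68 in non-mitotic and 0.24 in mitotic cells. In mitotic cells 3 of 15 members were higher and none lower, beside 292 higher and 377 lower of 4631 genes. Irf1, a factor induced by interferon gamma, was at 33.6 CPM in untreated wild-type and 82.1 CPM in untreated knockout cells, and at 96.8 and 100.3 with anti-PD-L1. Its log2 fold was 1.29 (95% interval 1.04 to 1.55), and wild-type untreated was the lowest library. Socs3, an inhibitor of STAT3 signalling, was at 10.98 and 33.2 CPM (1.60), Socs1 at 14.4 and 29.2 CPM (1.02) and Isg15, a ubiquitin-like protein, at 15.8 and 31.6 CPM (1.00). In melanoma cells 12 of 21 members were higher (median 0.67), where 6.58% of all genes were. In macrophages 10 of 24 members were higher (median 0.42), where 11.8% of all genes were. MHC class I presentation genes had 13 members past the floor and none was 1.5-fold apart in CD8 T cells (median 0.05). In melanoma cells 8 of 11 were higher, with a median of 0.85, beside the same 6.58% of all genes. The difference between CD8 T cells and melanoma cells was not tested. H2-T22, a non-classical class I gene, had the largest positive fold of the list in CD8 T cells, at 201 and 274 CPM (0.45), and Tap2, a subunit of the peptide transporter, the most negative, at 92.3 and 69.9 CPM (−0.40).

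Receptors that guide migration were higher in part. Of 13 chemokine receptor and adhesion genes 4 were higher and none lower (median 0.44), where 6.72% of all genes were higher and 7.72% lower. In macrophages 6 of 11 were higher and 1 lower (median 0.59), beside 11.8% and 18% of all genes. Ccr2, a receptor for inflammatory chemokines, was at 21.1 CPM in untreated wild-type and 67.6 CPM in untreated knockout cells, and at 114 and 131 with anti-PD-L1. The log2 fold was 1.68 (95% interval 1.37 to 2.00), and both treated libraries were higher still. Cxcr6, found on tissue-resident T cells, was at 68.6 and 140.4 CPM (1.03) untreated and 319 and 311 CPM with anti-PD-L1. Itgav, an integrin chain, was at 28.7 and 65.4 CPM (1.19), while Cxcr3, the receptor for interferon-induced chemokines, was at 37.2 and 37.4 CPM (0.01). NK-type receptors had 7 members past the floor in CD8 T cells, 4 higher and 1 lower (median 0.80), beside 6.72% and 7.72% of all genes. Klrc2, an activating receptor, was at 27.7 and 64.5 CPM (1.22), and Klrd1, the partner chain of the Klrc family, at 338 and 589 CPM (0.80). Fcer1g, an adaptor abundant in macrophages, was the lower one, at 35.3 and 20.5 CPM (−0.78).

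Cytotoxic genes went both ways, with 12 of 19 past the floor, 5 higher and 2 lower (median 0.37), beside 6.72% and 7.72% of all genes. Gzma, a tryptase of the killing granule (chromosome 13, 113093824 to 113100981), was at 31.9 CPM in untreated wild-type and 354 CPM in untreated knockout cells, and at 779 and 688 with anti-PD-L1. The untreated log2 fold was 3.47 (95% interval 3.24 to 3.72), and knockout untreated lay between wild-type untreated and the treated libraries. A Gzma UMI was in 2.83% (95% interval 1.84 to 4.15) of wild-type and 13.9% (12.2 to 15.9) of knockout cells after thinning, against 0.840% and 1.04% of macrophages, and no wild-type and 0.685% of knockout melanoma cells. Fasl, the ligand that triggers death in its target cell, was at 16.7 and 61.8 CPM (1.89) untreated, and Serpinb9, which shields the killer cell from its own granzyme B, at 112 and 226 CPM (1.01). Gzmb, the granzyme that cleaves caspases, was at 1333 CPM in untreated wild-type and 1420.4 CPM in untreated knockout cells, and at 2055 and 2686 with anti-PD-L1. Its untreated fold was 0.09, 0.41 in non-mitotic and −0.32 in mitotic cells. Prf1, which encodes perforin, was under the floor at 20.9 and 10.8 CPM, with a fold of −0.95, and −0.56 with the first listing.

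Gzmc, a gene of the granzyme cluster (chromosome 14, 56231397 to 56241647), had the most negative fold among the leading genes. It was at 298 CPM in untreated wild-type and 19.3 CPM in untreated knockout cells, and at 124 and 48.5 with anti-PD-L1, and the untreated log2 fold was −3.95 (95% interval −4.20 to −3.71). Wild-type untreated was the high library and knockout untreated the low one. Its UMIs were in 119 wild-type and 50 knockout cells, and the highest cells held 132 and 65 of them. Gzmf, its neighbour, was at 77.9 and 3.90 CPM (−4.32), held by 35 wild-type and 5 knockout cells. Granzymes of this cluster are closely alike, so reads can be shared between them, and the interval is too narrow where few cells hold the UMIs.

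Chemokine and cytokine transcripts depended on which cells were summed. Of 8 genes past the floor 2 were higher and none lower (median 0.49), where 6.72% of all genes were higher and 7.72% lower. Among non-mitotic cells 7 of 8 were higher (median 0.92), where 8.36% of all genes were, and the median among mitotic cells was −0.27. Ccl5, an attractant of T cells and monocytes, was at 487 CPM in untreated wild-type and 2141 CPM in untreated knockout cells, and at 5067 and 4310.2 with anti-PD-L1. The log2 fold was 2.14 (95% interval 2.07 to 2.20), and both treated libraries were above knockout untreated. After thinning 34.99% (95% interval 31.8 to 38.2) of wild-type and 55.6% (52.99 to 58.3) of knockout cells held a UMI, but so did 22.7% and 58.3% of macrophages and 13.7% and 40.4% of melanoma cells. The share of melanoma cells with a Ccl5 UMI was higher in knockout too, so no difference is read from the share of cells. Whether the UMIs in melanoma cells came from expression or free RNA was not tested. What part free RNA has in the level in CD8 T cells was not tested either. Ifng, the interferon of T cells, was at 144 CPM in untreated wild-type and 208 CPM in untreated knockout cells, and at 299 and 423 with anti-PD-L1. Its untreated fold was 0.53 (95% interval 0.40 to 0.66), 0.85 in non-mitotic and −0.11 in mitotic cells, and −0.01 with the first listing of the barcodes. Xcl1, which attracts cross-presenting dendritic cells, was at 726 and 1035 CPM (0.51 in all, 1.30 in non-mitotic and −0.44 in mitotic cells), and Ccl4 at 303 and 570.1 CPM (0.91, 1.51 and −0.27).

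Inhibitory receptors and exhaustion genes split, with 7 of 14 past the floor, 1 higher and 2 lower (median 0.03). Beside them 6.72% of all genes were higher and 7.72% lower. Tox, a chromatin factor of the exhausted state (chromosome 4, 6686353 to 6991557), was at 114 CPM in untreated wild-type and 48.5 CPM in untreated knockout cells, and at 47.8 and 36 with anti-PD-L1. The untreated log2 fold was −1.23 (95% interval −1.43 to −1.04), and wild-type untreated stood above the other 3. Tox had a UMI in 24.7% (95% interval 21.9 to 27.7) of wild-type and 11.4% (9.74 to 13.1) of knockout cells after thinning, in 0.259% of wild-type melanoma cells, and in no other melanoma cell or macrophage. Cd200, a ligand of an inhibitory myeloid receptor, was lower at 62.1 and 23.7 CPM (−1.39). Ctla4, which competes with Cd28 for its ligands, was the higher member at 119.8 CPM in untreated wild-type and 241 CPM in untreated knockout cells, and at 299 and 338 with anti-PD-L1, a fold of 1.01 (95% interval 0.87 to 1.14) untreated. Lag3 was at 251 and 356 CPM (0.50), Havcr2, which encodes TIM-3, at 24.7 and 25.3 CPM (0.03) and Pdcd1, which encodes PD-1, at 316 and 243 CPM (−0.38; −0.15 in non-mitotic and −0.71 in mitotic cells). Over all gated cells none of these 3 differed 1.5-fold. In non-mitotic cells 3 of 7 list members were higher and 2 lower, where 8.36% of all genes were higher and 10.8% lower. In mitotic cells 1 of 6 was higher and 3 lower, beside 292 higher and 377 lower of 4631 genes.

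Progenitor and memory genes had 12 of 20 members past the floor, 5 higher and 3 lower (median 0.18, and −0.06 in non-mitotic cells). Beside them 6.72% of all genes were higher and 7.72% lower. Dapl1, a small protein of early memory-type T cells (chromosome 2, 59484653 to 59505020), was at 297 CPM in untreated wild-type and 74.2 CPM in untreated knockout cells, and at 79.2 and 22 with anti-PD-L1. The untreated log2 fold was −2.00 (95% interval −2.14 to −1.86), −2.97 in non-mitotic cells, and a UMI was in 30.7% (95% interval 27.7 to 33.9) of wild-type and 8.63% (7.20 to 10.2) of knockout cells after thinning. Knockout cells were below wild-type cells within each treatment. Slamf6, a surface marker of progenitor-like cells, was at 109.8 CPM in untreated wild-type and 69.8 CPM in untreated knockout cells, and at 54.2 and 28 with anti-PD-L1, with an untreated fold of −0.65. Tcf7 itself was at 98.2 CPM in untreated wild-type and 88.3 CPM in untreated knockout cells, and at 55.8 and 36.8 with anti-PD-L1. Its untreated fold was −0.15 (95% interval −0.33 to 0.02), −0.53 in non-mitotic cells. On the higher side, Satb1, a chromatin organiser, was at 34.01 CPM in untreated wild-type and 118 CPM in untreated knockout cells, and at 141 and 148 with anti-PD-L1, an untreated fold of 1.80 (95% interval 1.56 to 2.05). Ccr7, the lymph node homing receptor, was at 229 CPM in untreated wild-type and 460 CPM in untreated knockout cells, and at 545 and 355 with anti-PD-L1, an untreated fold of 1.01. Il7r, the receptor of a survival cytokine, was at 23.4 and 44.8 CPM (0.94) and Klf2, a factor of quiescent circulating cells, at 76.5 and 131 CPM (0.78). Satb1 held no UMI in any thinned melanoma or macrophage cell and had 7.13% (95% interval 5.53 to 9.04) of wild-type and 24.9% (22.7 to 27.3) of knockout cells with one.

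Cells with a Tcf7 UMI, 317 wild-type and 393 knockout, were also compared. Within them 309 of 4608 genes were higher in knockout (6.71%) and 439 lower (9.53%). AP-1 genes had 12 of 14 members higher and none lower (median 1.27) and MAPK feedback genes 3 of 4 (median 1.31). T cell receptor induced genes had 9 of 19 higher and 4 lower, with a median of 0.25, while in cells with no Tcf7 UMI, where 7.35% of all genes were higher and 9.05% lower, 10 of 18 were higher, 2 lower and the median was 0.75. Dapl1 had folds of −1.46 with and −2.70 without a Tcf7 UMI, Tox −1.43 and −1.13, and Gzma 3.15 and 3.48, the former under the floor with 3.47 and 30.7 CPM. A cell without a Tcf7 UMI can still express the gene at this depth.

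**Figure D4:**
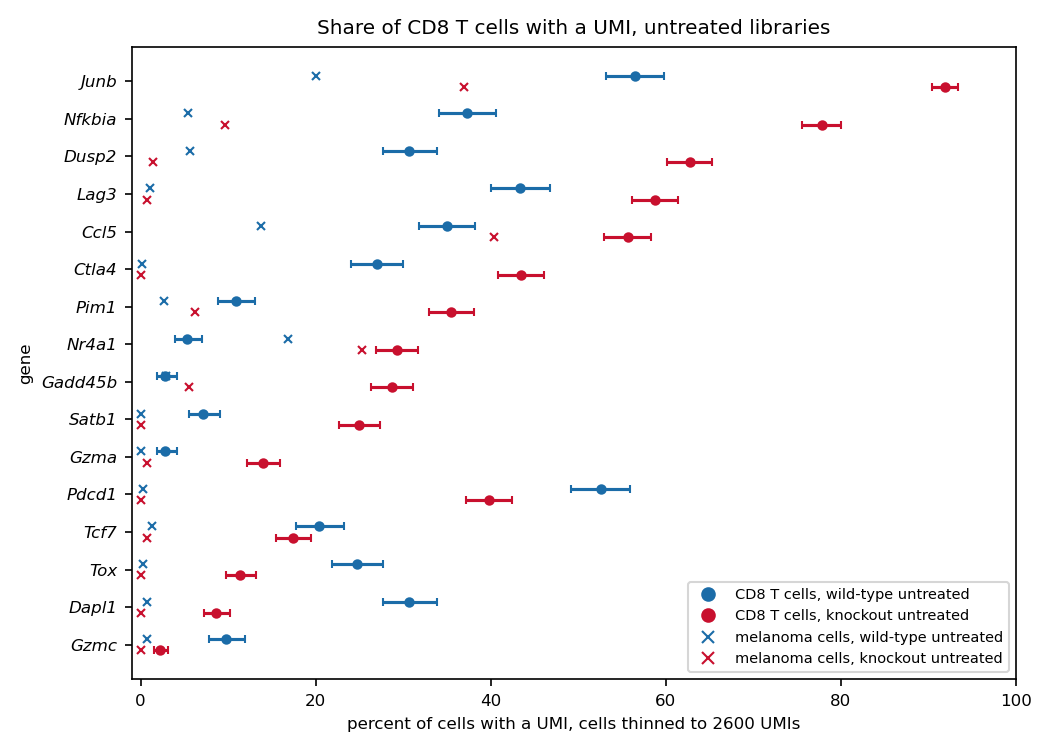
Share of untreated CD8 T cells with a UMI of each gene (circles with exact 95% binomial intervals) and of melanoma cells of the same libraries (crosses), after thinning to 2600 UMIs. Junb goes from 56.5% to 91.9% and Tox from 24.7% to 11.4% in CD8 T cells. Junb, Ccl5 and Nr4a1 were also detected in melanoma cells.

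In the untreated libraries a smaller share of knockout than of wild-type cells was mitotic. The share was 53.6% (95% exact interval 50.6 to 56.6) in wild-type untreated and 41.5% (39.0 to 43.99) in knockout untreated, a difference of 12.2 percentage points (8.31 to 16.0), and 25.4% and 34.1% with anti-PD-L1. After thinning it was 38.5% and 26.6% untreated, leaving out 202 and 140 cells below 2600 UMIs, and 14.2% and 18.5% with anti-PD-L1. The order of the genotypes was the opposite with the antibody, and the difference between treatments was not tested. The 6 genes summed for the limit did not all move alike over all gated untreated cells. Mki67 was at 104.1 CPM in wild-type and 106.9 CPM in knockout (0.04, and 0.27 with the first listing of the barcodes), and Top2a at 265.9 and 275.0 CPM. Birc5, Ube2c, Cenpf and Ccna2 were lower in knockout. Just below the limit of 4 UMIs there were 79 wild-type and 60 knockout cells, and just at it 86 and 52. Among cells with a Tcf7 UMI the difference was 1.05 points, and among cells of under 4000 UMIs 22.1 points.

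G2/M genes had 23 of 29 members past the floor, 14 lower and none higher (median −0.69), where 7.72% of all genes were lower. Plk1, a mitotic kinase, was at 74.8 CPM in untreated wild-type and 28.5 CPM in untreated knockout cells, and at 18.6 and 30.9 with anti-PD-L1. Its log2 fold was −1.39 (95% interval −1.64 to −1.15), with wild-type untreated the high library. Cdc20 was at 178 and 79.3 CPM (−1.16) and Ccnb1, the mitotic cyclin, at 119 and 56.04 CPM (−1.09). Within mitotic cells the folds were closer to 0, at −1.12 for Plk1, −0.85 for Cdc20 and −0.75 for Ccnb1. S phase genes had 27 of 28 past the floor, 6 lower and none higher (median −0.41), such as Cdc45, a subunit of the replicative helicase, at 38.02 and 20.3 CPM (−0.91, and −0.54 with the first listing of the barcodes), Mcm7, of the same helicase, at 172 and 101 CPM (−0.77), and Tyms, which makes thymidylate, at 166 and 103 CPM (−0.69). The split into mitotic and non-mitotic cells was made on mitotic transcripts, so cell cycle folds within each part are not independent of it. Within non-mitotic cells the medians were −1.56 for G2/M and −0.73 for S phase. What part the split has in them was not tested. G2/M genes were lower in macrophages (11 of 11; 18% of all genes were lower there) and in melanoma cells (14 of 22; 5.21%) of the same libraries, with medians of −1.52 and −0.74. Whether those shifts share a source with the CD8 T cells was not tested.

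T cell receptor proximal signalling genes had 20 of 23 past the floor, 3 higher and 1 lower (median 0.27). The shares of all genes, to set beside each count in this paragraph, were 6.72% higher and 7.72% lower. Ptpn22, an inhibitory phosphatase, was at 120 and 223 CPM (0.90) and Lck at 429.8 and 447 CPM (0.06). Ptpn6, which encodes the phosphatase SHP-1, was the lower member at 273 and 141 CPM (−0.95). Effector transcription factors had 9 past the floor, 2 higher and none lower (median 0.40): Zeb2 was at 15.2 and 27.2 CPM (0.84) and Id2 at 210.4 and 324 CPM (0.62). Glycolysis genes had 1 of 18 lower and none higher (median −0.17), the lower one being Ldha, a lactate dehydrogenase, at 3154 and 2082 CPM (−0.60), which was within 1.5-fold under TMM (−0.53) and median-of-ratios factors (−0.53). Among 46 oxidative phosphorylation genes 3 were lower and none higher (median −0.24), of which Ndufc1 (−0.60) was within 1.5-fold under both other scalings (−0.53 in each). Of 61 ribosomal protein genes 4 were lower and 1 higher (median 0.12). The glycolysis, oxidative phosphorylation and ribosomal protein counts were under the shares of all genes in both directions.

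A few ribosomal protein genes and Atp5k were lower in knockout, although 44 of the 61 ribosomal protein genes past the floor had positive folds. The count of lower ones, 4 of 61, was near the share of all genes that were lower, 7.72%. Rps29, Rpl38, Rps28 and Rps21 of the ribosome had folds of −0.97, −0.93, −0.86 and −0.74, and Atp5k, a small subunit of ATP synthase, was at 319 CPM in untreated wild-type and 135 CPM in untreated knockout cells, and at 362 and 259 with anti-PD-L1. Its untreated log2 fold was −1.24 (95% interval −1.35 to −1.13), with −1.08 in macrophages and −1.20 in melanoma cells. For Rps29 they were −1.25 and −1.10, and all 5 genes were lower in each of the 3 cell types. Other genes with large negative folds were Eno3, an enolase, at 207 and 66.6 CPM (−1.63), Igfbp7, a secreted binder of growth factors, at 114 and 45.5 CPM (−1.33), and Nop58, a box C/D snoRNP protein, at 195 and 88.4 CPM (−1.14). Fam3c had −1.15 and Glipr1 −1.04. In the list of annexin, S100 and metallothionein genes 5 of 19 were lower and 2 higher, beside 7.72% and 6.72% of all genes. The lowest was Cd81, a tetraspanin, at 66.96 and 11.1 CPM (−2.60). The metal-binding Mt1 and Mt2 were at 498 and 292 CPM (−0.77) and 224 and 113 CPM (−0.98). Melanoma markers were also higher in the gated wild-type cells. What part free RNA of melanoma cells has in the wild-type levels of these genes was not tested.

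Tet2 transcripts were under the floor. The gene (chromosome 3, 133463677 to 133545136) was at 13.7 CPM in untreated wild-type and 23.2 CPM in untreated knockout cells, and at 15.6 and 17.8 with anti-PD-L1. The untreated log2 fold was 0.75 (95% interval 0.34 to 1.19), and 0.37 with the first listing of the barcodes. Counts come from the 3′ end and the deleted part is not named, so this level checks nothing about the knockout. Tet3 was at 14.2 and 21.8 CPM (0.62) and Tet1 at 0.845 and 0.881 CPM. Of 5 TET and DNA methylation genes past the floor 1 was lower, Dnmt3a, a maker of new methyl marks, at 27.2 and 17.5 CPM (−0.64), which was within 1.5-fold under both other scalings (−0.57 in each).

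With anti-PD-L1 the same genotype comparison, which shares no library with the untreated one, gave fewer such genes. Of 4576 genes 43 were higher in knockout (0.94%) and 73 lower (1.6%), with a median log2 fold of 0.09. Of the 305 genes higher untreated that were tested there 4 were higher and 13 lower, their median going from 0.85 to −0.04, and of the 272 lower genes tested 14 were lower and 9 higher, from −0.71 to 0.17. Medians of the AP-1, NF-kB and T cell receptor induced lists were −0.20, −0.03 and −0.11. Progenitor and memory genes had 5 of 13 lower and none higher (median −0.35), and G2/M genes 4 of 17 higher and none lower (median 0.33). The 4 genes higher in both were Cables1, Gm10036, Gm156 and Erdr1. Gm156, of the NK-type receptor list, was at 66.3 CPM in untreated wild-type and 192 CPM in untreated knockout cells, and at 92.3 and 279 with anti-PD-L1, so knockout was above wild-type within each treatment. Genes lower in both included Dapl1 (−1.85 with anti-PD-L1), Gzmc (−1.36), Slamf6 (−0.95) and Mt2 (−0.75). For the 12 leading higher genes wild-type untreated was the lowest of the 4 libraries, and the fold with anti-PD-L1 lay between −0.23 for Ccl5 and 0.18 for Icos.

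**Figure D5:**
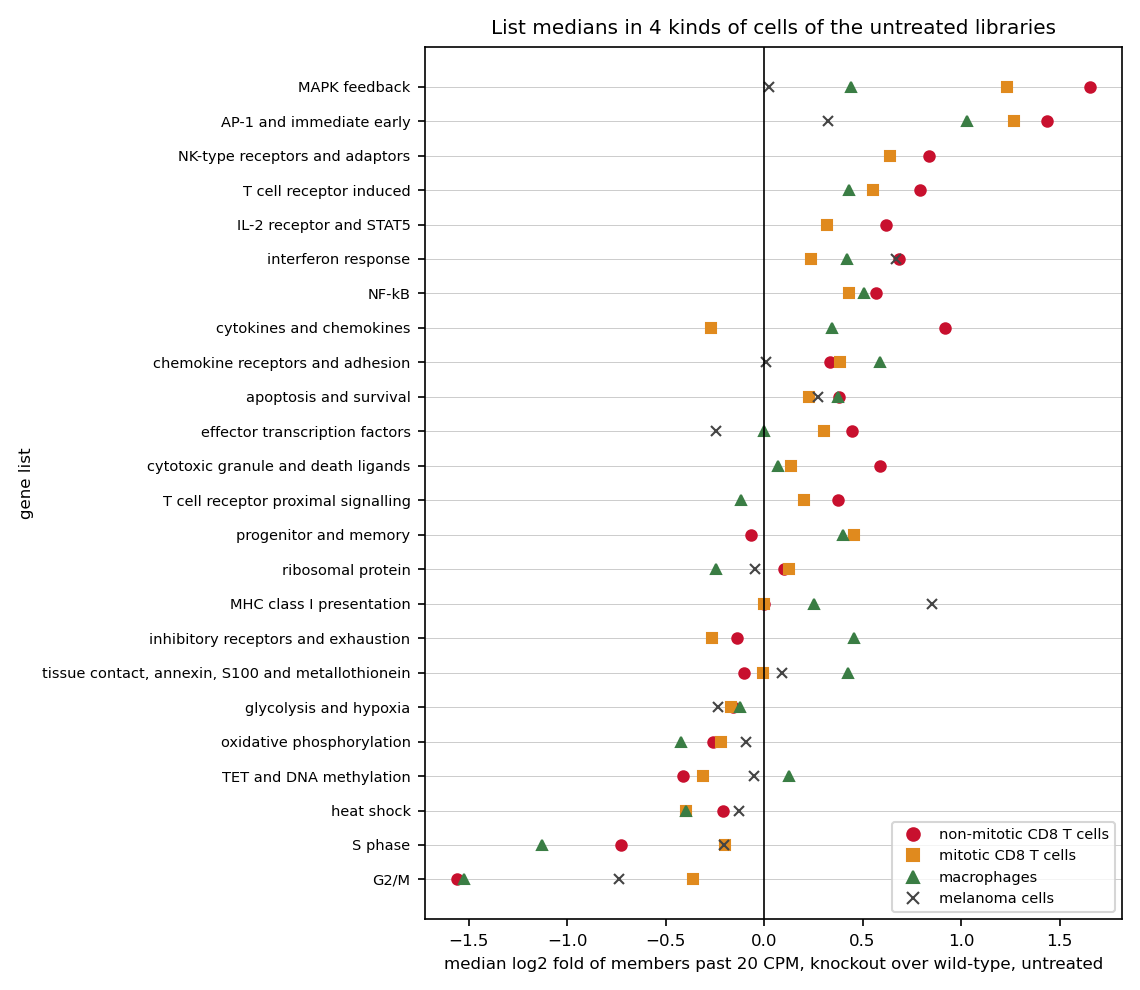
Median log2 fold of list members past 20 CPM, untreated knockout over wild-type, in non-mitotic and mitotic CD8 T cells, macrophages and melanoma cells (lists with at least 4 such members in a cell type). AP-1 medians are 1.44, 1.27, 1.03 and 0.32 in that order, and G2/M medians are negative in all 4.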

How the data were processed

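Single cells were captured with the Chromium 3′ V2 kit, per the labels' protocols. The authors deposited raw UMI counts, 1 table per library with cells in rows. The submitters' processing notes name mm10 and, without a role, HTSeq, HISAT2, Genrich 0.5, DESeq2, Bowtie2, Trim Galore 0.5.0 and bedtools; how cells were called is not given in the sources used here. Each barcode was listed under 1 or 2 hyphens with differing counts; the listing with 2 hyphens was used and the other was an alternative. Cells with at least 500 genes and at most 10% mitochondrial UMIs were kept. No doublet caller was run; leaving out cells above 2 times the median UMIs was an alternative.

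Gene columns whose name holds a numeric suffix or is not in all 4 tables (596 and 546 in the untreated tables) were left out, leaving 28029 genes, of which 26965 matched RefSeq symbols. UMIs were summed over gated cells and divided by the sum (CPM, computed here). Folds are ratios of CPM with a library at 0 set to 3 UMIs, with exact conditional binomial 95% intervals. Shares have exact Clopper-Pearson 95% intervals after thinning to 2600 UMIs, and the limit for a count of 0 is 3 cells. Macrophages and melanoma cells were gated on the same genes. TMM factors came from edgeR 4.0.16 and size factors from DESeq2 1.42.0 (R 4.3.3), for scaling only, and intervals from scipy 1.17.1. The fold script was checked on simulated data.

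Genes were named by rule: the 12 highest and 12 lowest folds past the limits in the text (under 10% of UMIs in 1 cell; ribosomal, mitochondrial, unnamed, receptor-segment, haemoglobin and sex-linked genes left out), up to 4 members of each of 24 lists, and a few fixed genes. Batf, Cd69, Cd83, Cxcr3, Fcer1g, Jun, Lck, Mcl1, Nfkb1, Nfkb2, Rela, Relb, Serpinb9, Slamf6, Cables1, Gm10036 and Erdr1 were added after their values were seen. The cell gate, lists and rules were chosen with earlier results of these data known. The 16 other samples of the series were not analysed here, and a few genes of the lists are not reported here.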

Additional observations from a re-analysis of the deposited data

Results flagged for a closer look

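For 6 named genes the genotype fold had opposite signs, each past 1.5-fold, without and with anti-PD-L1, and the difference was not tested because each group is 1 library. The log2 fold of Ccnb1 was −1.09 untreated and 0.74 with the antibody. Plk1 went from −1.39 to 0.73 and Cdc45 from −0.91 (−0.54, within 1.5-fold, with the first listing of the barcodes) to 0.70, the same direction as the share of mitotic cells. Ccr7 had 1.01 and −0.62, and Klf2 had 0.78 and −1.36. Hspa1a, an inducible chaperone, had −0.89 and 1.66.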

How the results depend on the processing

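No paired analysis was possible because each group is 1 library. None of the 309 higher or 355 lower genes changed sign under another scaling, floor, barcode listing, cell weight, quality filter, gate or depth, apart from subsets added after seeing the data, given below. By fold alone, with no floor applied anew, 309 and 249 stayed past 1.5-fold under TMM factors and 259 and 265 with the first listing of the barcodes. With a minimum of 50 CPM there were 139 higher and 182 lower genes (169 and 236 in non-mitotic cells), and no floor gave 1913 and 2030 (1837 and 2289), since the floor sets how many genes are counted. Non-mitotic split counts under TMM were 497 and 346, and under median-of-ratios factors 453 and 390, against 379 and 489. Subsets added after seeing the data moved 3 counts: lower genes in non-mitotic cells were 827 among cells with a Tcf7 UMI and 840 among cells of at least 4000 UMIs, and lower genes in all cells were 622 among cells of under 4000 UMIs. In those subsets 5 of the 309 higher genes changed sign in mitotic cells, 4 among cells with a Tcf7 UMI and 4 without cells holding 5 haemoglobin UMIs or a fibroblast marker, and 3 of the 355 lower genes did so among cells with a Tcf7 UMI and 3 among cells of under 4000 UMIs. The difference in mitotic share, 12.2 points, was 1.05 points among cells with a Tcf7 UMI and 22.1 points among cells of under 4000 UMIs; the cause was not tested. Ccl4 reversed to −0.27 in mitotic cells and Gzmf to 0.84 in cells with a Tcf7 UMI; the cause was not tested. Among other values for named genes 1549 stayed within the gene's counting interval and 370 left it, without a change of sign in a called gene, and list medians stayed within the median of their members' intervals 393 times and left it 63 times.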
